A study of Mus musculus with 7 samples.

Results

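TCRBV29-01 is one of the V gene segments from which the variable part of the T-cell receptor β chain is assembled. All rearrangements assigned to this segment were taken from the CD8 TILs of 7 mice, and productive (in-frame) ones were kept apart from non-productive ones (out of frame or with a stop codon). This gave 441 of the 10930 rearrangements listed, of which 321 of 6907 were productive and 120 of 4023 were not. The mice were C57BL/6 animals of 6-8 weeks bearing A223 tumors, a transplanted mouse squamous cell carcinoma line, so every group shares 1 tumor model. Anti-PD-L1 was given to all 7, at 200 µg in each of 3 injections at a 2-day interval, and no PBS-treated mouse was analysed here. The 3 responders (R: 1R, 2R and 3R) had a relative change in tumor volume below 0, and the 4 non-responders (NR: 4NR, 5NR, 6NR and 7NR) one above 1.5. Each mouse gave 1 library of rearranged genomic DNA from CD8 T cells purified from the tumor on day 18. The files hold receptor rearrangements only, so that the CD8 identity of the cells could not be checked against other genes.

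Each β chain is made in the thymus by joining a V, a D and a J segment. Bases are trimmed from the segment ends and N bases are inserted between them, and the joint forms CDR3, the loop that contacts the antigenic peptide. Daughter cells inherit the rearrangement, so a nucleotide rearrangement held by many cells marks a clone, whereas a non-productive rearrangement encodes no receptor and is carried along by the productive one in the same cell. The mouse segment is named Trbv29 in RefSeq, with the older names Tcrb-V7 and Vbeta7, and it stands between Trbv28 and Trbv30 toward the J end of the locus. The RefSeq table (assembly GRCm38.p6) lists Trbv29 as a pseudogene segment. In these mice it gave 321 productive rearrangements with 2992 templates, while the 10 other V labels that the table lists as pseudogenes and that were found here gave between 0 and 12 productive rearrangements each. A template is the number of starting DNA molecules estimated for a rearrangement and is close to the number of cells carrying it.

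TCRBV29-01 was chosen by its summed productive frequency, which was higher in every R mouse than in every NR mouse, and all R against NR values of productive TCRBV29-01 are therefore given as a description, without a test. Of 30 V labels with productive templates, 3 showed this pattern (10%). The clones that carried these frequencies are shown first. Each sequence is the 87-base window of the file, read toward the J segment, with the CDR3 bases in capitals. The window ends before the last CDR3 codon.

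The largest TCRBV29-01 rearrangement of 2R, 3R, 5NR and 6NR was a single identical sequence, and 1R and 7NR had others:
2R, 3R, 5NR and 6NR: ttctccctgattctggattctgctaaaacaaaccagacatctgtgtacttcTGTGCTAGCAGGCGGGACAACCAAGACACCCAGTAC
1R: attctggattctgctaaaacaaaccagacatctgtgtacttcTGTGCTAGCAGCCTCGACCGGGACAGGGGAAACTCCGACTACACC
7NR: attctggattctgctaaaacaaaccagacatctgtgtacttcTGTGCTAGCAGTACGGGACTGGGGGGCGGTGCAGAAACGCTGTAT

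The first of these encoded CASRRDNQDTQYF with TCRBJ02-05. It had 6 V bases deleted, 2 inserted bases and no D segment called. It held 1799 templates in 2R, where it was the second most abundant rearrangement of the mouse with 21.0% of the productive templates (95% Wilson interval 20.2 to 21.9, counting error only). The same 87 bases were found with 41 templates in 3R, with 43 in 5NR, 16 in 6NR and 10 in 7NR, and with 0 in 1R and 4NR. A count of 0 allows up to 0.0217% in 1R and 0.0593% in 4NR. The sequence was thus present in 2 R and 3 NR mice, and its share was 0.686% in 6NR, 0.415% in 3R, 0.366% in 5NR and 0.0659% in 7NR. How the same sequence came to be in 5 libraries was not tested.

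The 1R clone had a CDR3 of 16 residues from TCRBJ01-02, with 8 inserted bases. It held 264 templates, 1.91% of the productive templates of 1R (1.70 to 2.15), and was found in no other mouse. The 7NR clone, also with 16 residues and joined to TCRBJ02-03, held 33 templates (0.217%, 0.155 to 0.305) and was likewise found in 7NR only. In 4NR no TCRBV29-01 rearrangement stood out. There, 7 rearrangements tied at 3 templates (0.0593%), among them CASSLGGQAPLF, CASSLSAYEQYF, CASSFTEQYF, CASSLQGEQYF, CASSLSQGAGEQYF and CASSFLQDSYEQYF.

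Productive TCRBV29-01 templates numbered 490, 1958 and 158 in mice 1R to 3R and 58, 118, 29 and 181 in mice 4NR to 7NR. Out of 13807, 8556 and 9877 productive templates in R and 5062, 11741, 2332 and 15182 in NR, this was 3.55%, 22.9% and 1.60% in R, and 1.15%, 1.01%, 1.24% and 1.19% in NR. The mean was 9.34% ± 11.8 (SD, n = 3) in R mice and 1.15% ± 0.103 (SD, n = 4) in NR. The 4 NR mice lay close together, 3R lay just above them, and 2R stood far above all others. The gene ranked 7, 2 and 13 among 30 V labels in mice 1R to 3R and 15, 14, 10 and 12 in mice 4NR to 7NR.

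The largest clone made up 53.9%, 91.9% and 25.9% of the TCRBV29-01 templates of mice 1R to 3R, and 5.17%, 36.4%, 55.2% and 18.2% in mice 4NR to 7NR. Without it, the remaining rearrangements held 1.64%, 1.86% and 1.18% in R and 1.09%, 0.639%, 0.557% and 0.975% in NR. The groups did not overlap, but the intervals of 3R (0.989 to 1.42) and 4NR (0.836 to 1.41) did, and the mean difference fell from 8.20 to 0.75 percentage points. This remainder is part of the measure that chose the gene. How many other V labels stay apart without their largest clones was not examined. Without 2R, the mean of R exceeded that of NR by 1.43 percentage points.

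**Figure D1:**
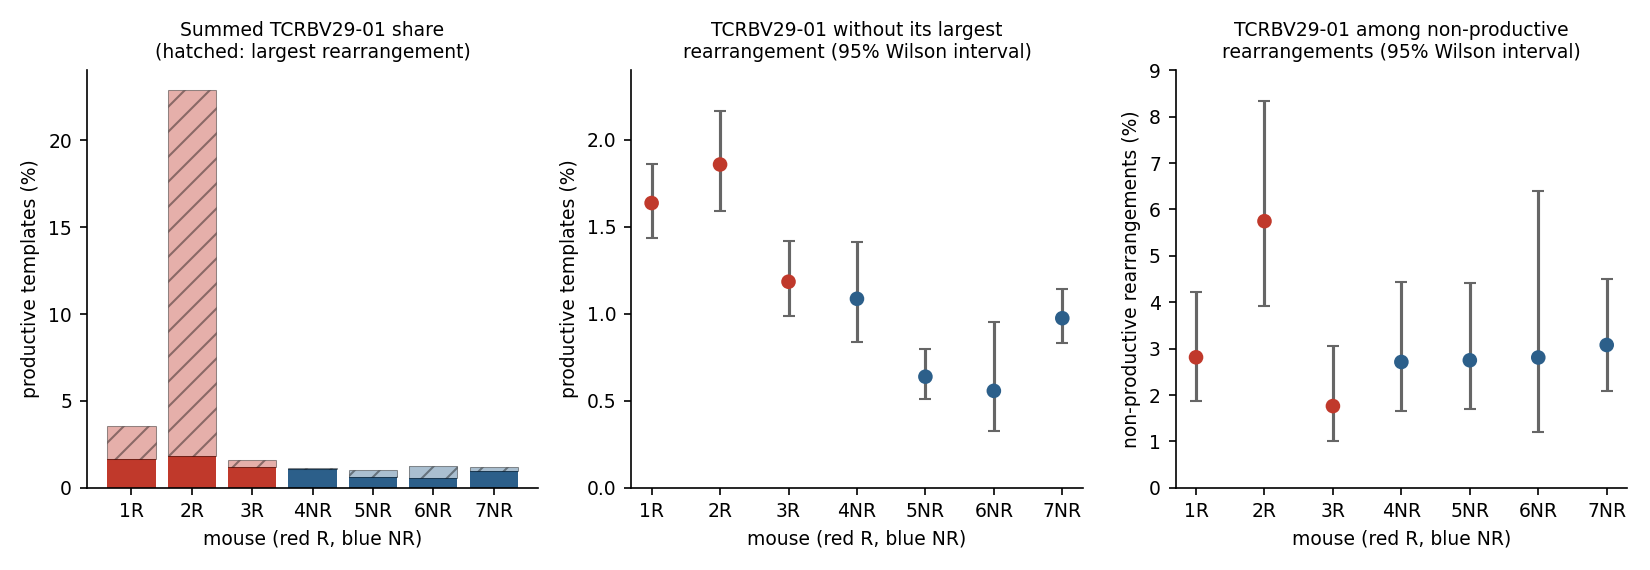
TCRBV29-01 in each mouse. Left, percent of productive templates, with the largest rearrangement hatched; middle, the same without the largest rearrangement; right, percent of non-productive rearrangements, with 95% Wilson intervals in the middle and right panels. The hatched part of 2R is 21.0% of its productive templates, and in the right panel 3R, at 1.76%, is the lowest mouse.

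A further split left out every rearrangement that was found at a higher frequency in another mouse. It removed 51 templates of 3R, 46 of 5NR, 19 of 6NR, 13 of 7NR and 2 of 2R, and none of 1R or 4NR. The shares became 3.55%, 22.9% and 1.08% in R and 1.15%, 0.613%, 0.429% and 1.11% in NR. On this count 3R lay below 4NR and 7NR, and the groups overlapped. With the sequence of the 2R clone left out of all mice instead, R held 3.55%, 1.86% and 1.18% and NR 1.15%, 0.639%, 0.557% and 1.13%. Here 3R lay above the NR mice by a narrow margin, and other V labels were not examined in this way.

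Counted as distinct rearrangements, TCRBV29-01 had 69, 50 and 45 in mice 1R to 3R and 37, 34, 11 and 75 in mice 4NR to 7NR. These were 4.90%, 6.53% and 4.13% of the productive rearrangements in R (5.18% ± 1.23, SD, n = 3) and 3.90%, 3.57%, 3.30% and 5.33% in NR (4.03% ± 0.902, SD, n = 4). The groups overlapped, with 7NR above 1R and 3R. Without the neighbours of larger clones defined below, the shares were 4.81%, 5.40% and 4.36% in R and 4.08%, 3.91%, 3.15% and 5.45% in NR, and 7NR lay above every R mouse. Thinned to 2332 templates, the depth of 6NR, the expected number of TCRBV29-01 rearrangements was 22.6, 22.6 and 17.6 in R and 21.5, 12.2, 11 and 18.9 in NR, again with overlap.

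Most of these rearrangements were small. Rearrangements with 1 template were 59.4%, 48.0% and 55.6% of those with TCRBV29-01 in R and 62.2%, 44.1%, 63.6% and 64% in NR, and the median size was 1 or 2 templates in every mouse. With other V segments they were 56.1%, 56.1% and 58.9% in R and 59.7%, 59.0%, 55.9% and 59.5% in NR. The median with other V segments was 1 template in every mouse, so small size was not particular to TCRBV29-01. Above 0.1% of the productive templates there were 18 rearrangements, 5, 5 and 3 in mice 1R to 3R and 0, 2, 1 and 2 in mice 4NR to 7NR. These were 18 of 321 productive rearrangements, against 375 of 6586 with other V segments, a similar share. Only the 2R and 1R clones exceeded 1%. Without the 3 that were more frequent in another mouse, 12 were in R and 3 in NR. Clone size is part of the measure that chose the gene, so this split is a description only. No matching split by group was made for other V segments. The 18 were 15 distinct sequences, since that of the 2R clone was counted in 4 mice. Of the 18, 15 used a J cluster 2 segment and 8 used TCRBJ02-05, the latter with 5 distinct sequences. Of 375 rearrangements above 0.1% with other V segments, 283 (75.5%) used J cluster 2 and 29 (7.73%) TCRBJ02-05.

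In 1R these clones included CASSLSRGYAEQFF with 32 templates (0.232%), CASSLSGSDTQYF with 26 (0.188%) and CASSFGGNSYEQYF with 18 (0.130%). In 2R they included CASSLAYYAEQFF with 19 templates (0.222%) and 2 clones with TCRBJ02-05 of 15 and 16 residues, with 30 (0.351%) and 25 templates (0.292%). In 3R, besides the shared sequence, they were 2 clones of 15 residues with a TCRBD02-01 call, 1 with TCRBJ02-04 and 29 templates (0.294%) and 1 with TCRBJ02-05 and 16 templates (0.162%). In 5NR a clone of 15 residues with TCRBJ02-04 held 16 templates (0.136%), and in 7NR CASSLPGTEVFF held 17 (0.112%). The smallest rearrangement above the threshold had 9 templates in 2R (0.105%) and the largest below it 12 templates in 1R (0.0869%). In 6NR, 2 templates were already 0.0858%, so that mouse had few sizes to resolve.

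**Figure D2:**
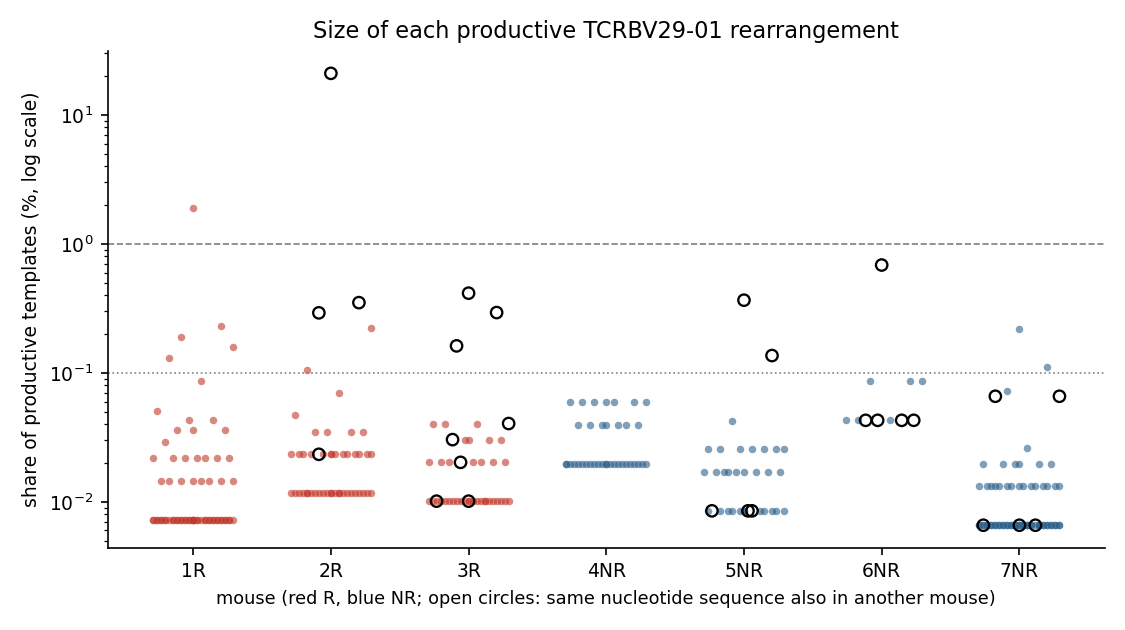
Size of each productive TCRBV29-01 rearrangement in each mouse, as percent of productive templates on a log scale, with lines at 0.1% and 1%. Open circles mark sequences that were also found in another mouse. 2 points lie above 1%, 1 in 2R at 21.0% and 1 in 1R at 1.91%, and 1R and 4NR have no open circle.

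Few TCRBV29-01 sequences were shared between mice. Of 303 distinct productive TCRBV29-01 sequences, 9 (2.97%, 1.57 to 5.55) occurred in at least 2 mice, against 265 of 6227 (4.26%, 3.78 to 4.79) with other V segments. The 9 included a sequence with the CDR3 bases of the 2R clone and a different V part (2 templates in 2R, 1 in 3R and 1 in 6NR). Among non-productive sequences these were 6 of 114 (5.26%, 2.43 to 11.01) and 138 of 3734 (3.70%). The 6 included out-of-frame TCRBJ02-05 sequences with 1 template each in 3R and 6NR. Their CDR3 was a base shorter or longer than that of a 3R clone with 16 templates. Shares without such near variants were not computed for TCRBV29-01 or for other V segments. The mice 1R and 4NR shared no productive TCRBV29-01 sequence with any mouse. The largest overlap was between 3R and 5NR, with 5 sequences, which were 11.1% of those of 3R and 14.7% of those of 5NR. Overlaps by pair of mice were not computed for other V segments, so these values are not known to be particular to TCRBV29-01.

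The shared sequences were of 2 kinds. The CDR3 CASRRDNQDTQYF was written with the same CDR3 bases wherever it was found, and so were the 3 CDR3s of 15 or 16 residues found in at least 3 mice. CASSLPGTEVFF, with TCRBJ01-01, occurred in 4 mice, with 1 template in 1R and in 5NR, 6 in 2R and 17 in 7NR, and its CDR3 bases were different in each:
7NR: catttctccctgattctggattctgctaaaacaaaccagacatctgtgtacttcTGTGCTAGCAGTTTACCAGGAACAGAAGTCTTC
2R: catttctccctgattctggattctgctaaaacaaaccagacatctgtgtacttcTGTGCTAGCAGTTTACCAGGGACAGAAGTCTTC
5NR: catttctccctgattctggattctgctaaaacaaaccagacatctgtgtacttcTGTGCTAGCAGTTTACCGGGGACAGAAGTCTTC
1R: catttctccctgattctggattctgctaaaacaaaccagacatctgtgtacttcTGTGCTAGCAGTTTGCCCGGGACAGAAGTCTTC
The CDR3 had 2 deleted V bases in 7NR, 2R and 5NR and 3 in 1R, with 2, 1, 2 and 4 inserted bases. It was also found joined to TCRBV05-01 and TCRBV15-01, with 10 templates in all.

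The 2R clone was surrounded by small rearrangements that resembled it. The CDR3 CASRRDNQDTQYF was carried by 10 rearrangements in 2R, and the 9 others held 11 templates together and at most 2 each. They had the same CDR3 bases and differed only in the V part before CDR3, which is germline sequence. Another 9 rearrangements of 2R, all non-productive and with 10 templates in all, had a marked CDR3 that was 1 base shorter than that of the clone and otherwise identical. In 7 of them a base was missing within CDR3. In the other 2 a base was missing in the V part, and all CDR3 bases of the clone were present with the mark shifted by a base. Examples are shown with the clone first, then one with the same CDR3 bases and one that is a base shorter and out of frame:
2R clone: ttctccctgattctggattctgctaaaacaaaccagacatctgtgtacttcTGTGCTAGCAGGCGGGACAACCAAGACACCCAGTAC
same CDR3: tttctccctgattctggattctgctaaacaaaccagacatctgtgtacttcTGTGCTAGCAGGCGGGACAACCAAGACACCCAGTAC
out of frame: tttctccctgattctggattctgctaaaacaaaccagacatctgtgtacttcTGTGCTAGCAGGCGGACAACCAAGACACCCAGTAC
No other mouse had a non-productive TCRBV29-01 rearrangement within 1 base of this CDR3. In 1R, where the clone itself was not found, the nearest sequence encoded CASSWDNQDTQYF, with 1 template and 2 mismatches over the window.

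Over all mice, the last 30 V bases before CDR3 (gctaaaacaaaccagacatctgtgtacttc) were the same in most TCRBV29-01 rearrangements, and 30 of 441 (6.80%) differed from them, each with at most 2 templates. For the other V segments, read against the most frequent 30 bases of each, 614 of 10471 (5.86%) differed. Rearrangements with CDR3 bases equal to, or 1 base edit away from, those of a rearrangement with the same J segment and at least 10 times the templates in the same mouse are called neighbours of a larger clone below. They were 21 of the 321 productive TCRBV29-01 rearrangements (6.54%) and 22 of the 120 non-productive ones (18.3%), against 6.33% and 15.4% with other V segments. In 2R they were 11 of 50 and 10 of 25. Whether such neighbours were cells of their own or variants of the larger clone that arose in PCR or sequencing cannot be told apart in these files, so that counts of distinct rearrangements may count a clone more than once. The R against NR comparisons, the 5 features and the J and trimming shares are also given without these neighbours, a setting chosen after the data were seen.

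Non-productive TCRBV29-01 rearrangements were not used to choose the gene, and R was compared with NR on them. They numbered 22, 25 and 12 in mice 1R to 3R and 15, 16, 5 and 25 in mice 4NR to 7NR. As a share of the non-productive rearrangements of the mouse this was 2.81%, 5.75% and 1.76% in R (3.44% ± 2.07, SD, n = 3) and 2.71%, 2.75%, 2.81% and 3.08% in NR (2.84% ± 0.166, SD, n = 4). The lowest and the highest mouse were both R, and the NR mice lay between them. The difference was within the spread of the mice (exact permutation test, two-sided, p = 0.629, n = 3 and 4, where the smallest p possible is 0.0286). In a fit over all V labels with edgeR's quasi-likelihood test, the log2 fold change was 0.18 with a standard error of 0.33 and an adjusted p of 0.989. Of 24 V labels tested, 0 (0%) had an adjusted p below 0.05, and 0 an unadjusted p below 0.05, and DESeq2 likewise called 0.

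Part of the 2R count lay within a base of its largest clone. Without neighbours of larger clones, 2R had 15 non-productive TCRBV29-01 rearrangements, and the shares were 2.43%, 3.94% and 1.63% in R and 2.96%, 3.15%, 3.25% and 3.43% in NR. The direction of the mean difference turned (p = 0.4, exact permutation test, n = 3 and 4), as did that of the edgeR fit, to a log2 fold change of -0.40. Leaving out 2R turned it as well, to -0.31. None of these passed the test.

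The non-productive rearrangements were small. The largest in each mouse had 3, 5 and 4 templates in mice 1R to 3R and 4, 20, 2 and 7 in mice 4NR to 7NR. The one with 20 templates in 5NR joined TCRBJ02-04 out of frame and was also found with 1 template in 3R:
5NR non-productive: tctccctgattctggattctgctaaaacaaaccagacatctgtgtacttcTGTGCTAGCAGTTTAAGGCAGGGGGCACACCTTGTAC
By templates, TCRBV29-01 took 0.611%, 3.76% and 0.667% of the non-productive templates in R and 1.33%, 2.31%, 1.32% and 1.30% in NR, and the groups overlapped (p = 0.914, exact permutation test, n = 3 and 4).

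TCRBV29-01 was compared with all other V segments within each mouse in 5 features of distinct rearrangements, with a two-sided exact sign-flip permutation test over the 7 mice. The p-values were adjusted over the 5, and the smallest p possible is 0.0156. It was trimmed more deeply and was more often in frame than the other segments in 7 of 7 mice. CDR3 length, J cluster and inserted bases did not pass the test.

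The mean number of bases deleted from the V end was 3.55, 4.32 and 4.11 in mice 1R to 3R and 3.46, 3.71, 5.55 and 4.08 in mice 4NR to 7NR, against 2.46 to 2.65 with other V segments. The difference was 1.55 bases ± 0.680 (SD, n = 7; exact sign-flip permutation test, p = 0.0156, adjusted p = 0.0391). Trimming differs between V segments in general. Of 19 V labels with enough rearrangements in each mouse, 13 (68.4%) differed from the rest in the same direction in all 7 mice, and TCRBV29-01 had the next to highest excess. Without neighbours of larger clones the difference was 1.44 bases in 7 of 7 mice, with p = 0.0156 and an adjusted p of 0.0781 (exact permutation test).

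In TCRBV29-01 the deletions peaked at 6 bases. There were 75 of 321 rearrangements (23.4%) with 6 bases deleted and 54 (16.8%) with 5, against 4.10% and 11.8% with other V segments, and 10.9% had none deleted, against 25.2%. Non-productive TCRBV29-01 rearrangements, which encode no receptor, had 5 or 6 bases deleted in 40.8% of 120, against 15.04% with other V segments, close to the 40.2% and 15.9% of the productive ones. With neighbours left out, these shares were 37.3% of 300 productive rearrangements, against 16.7%, and 36.7% of 98 non-productive ones, against 16.4%. With all rearrangements, the non-productive share was above that of other V segments in each mouse, lowest in 4NR (26.7% against 20.4%).

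The depth of trimming went with the first residues of CDR3, as it must in part, since the V bases left in place encode them. All 44 rearrangements with no V base deleted, productive or not, began with the bases TGTGCTAGCAGTTTATC, and all 35 productive ones of these began CASSLS. With 2 bases deleted, 50 of 51 began CASSL, with 3 deleted 24 of 34 began CASSF, with 4 deleted 28 of 39 began CASSS, and with 5 deleted 27 of 54 began CASSP. With 6 deleted, 35 of 75 began CASR, and 17 of these 35 carried the CDR3 of the 2R clone in one of 5 mice. In all, 36.4% of productive TCRBV29-01 CDR3s began CASSL (31.4 to 41.8) and 10.9% CASR (7.94 to 14.8), against 21.9% and 2.99% with other V segments. Without the CDR3 of the 2R clone, 18 of 304 (5.92%) began CASR and 117 of 304 (38.5%) CASSL.

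The share of distinct rearrangements that were productive was 75.8%, 66.7% and 78.9% in mice 1R to 3R and 71.2%, 68.0%, 68.8% and 75.0% in mice 4NR to 7NR, against 61.0% to 65.1% with other V segments. The difference was 9.04 percentage points ± 5.35 (SD, n = 7; exact sign-flip permutation test, p = 0.0156, adjusted p = 0.0391), and TCRBV29-01 ranked 3 of 20 V labels, of which 6 (30%) differed in 1 direction in all 7 mice. The gap was smallest in 2R, with 3.08 percentage points, and largest in 3R, with 17.98. Without neighbours of larger clones it was 8.75 percentage points, and the adjusted p rose to 0.0781 (exact permutation test). Weighted by templates it was 2.85 percentage points ± 12.04 (SD, n = 7) and did not pass (adjusted p = 0.562, exact permutation test).

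**Figure D3:**
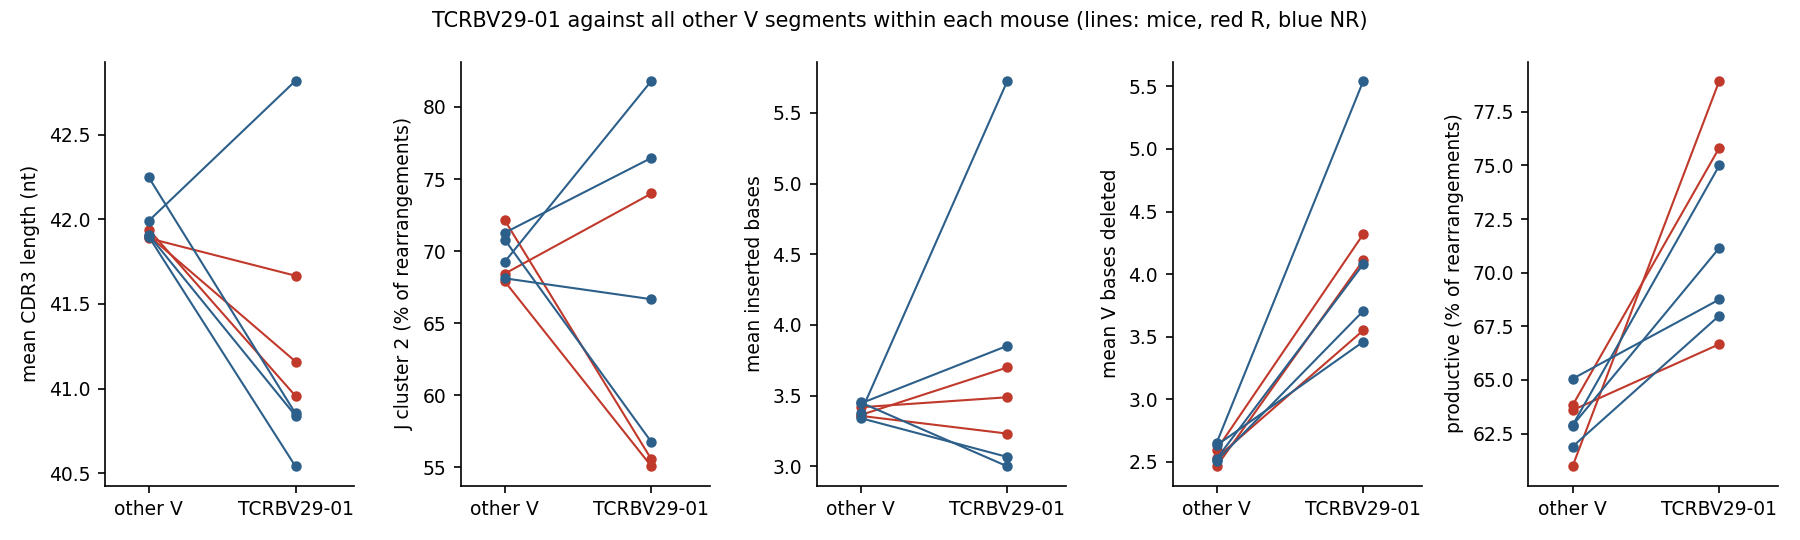
Means of TCRBV29-01 and of all other V segments within each mouse, from left to right for CDR3 length, share with a J cluster 2 segment, inserted bases, V bases deleted and share of productive rearrangements. Each line is a mouse. The lines rise in 7 of 7 mice in the 2 panels on the right, and 6NR, with 11 productive TCRBV29-01 rearrangements, is the top line at TCRBV29-01 in the first 4 panels.

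Productive CDR3s of TCRBV29-01 ran from 9 to 17 residues, most often 14 (24.9%), and 79.4% had 12 to 15. Their mean length in nucleotides was 41.0, 41.2 and 41.7 in mice 1R to 3R and 40.5, 40.9, 42.8 and 40.8 in mice 4NR to 7NR, against 41.9 to 42.2 with other V segments. They were shorter in 6 of 7 mice, with a mean difference of -0.71 nucleotides ± 0.785 (SD, n = 7; exact sign-flip permutation test, p = 0.0625, adjusted p = 0.104). Without neighbours of larger clones the difference was -0.64 (p = 0.109, exact permutation test). Of 19 V labels, 8 (42.1%) differed in 1 direction in all 7 mice. The median was 14 residues in all mice but 6NR, where it was 15. By templates, 68.6% of TCRBV29-01 had 13 residues, the length of the 2R clone, and 12.97% had 16, the length of the 1R clone.

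**Figure D4:**
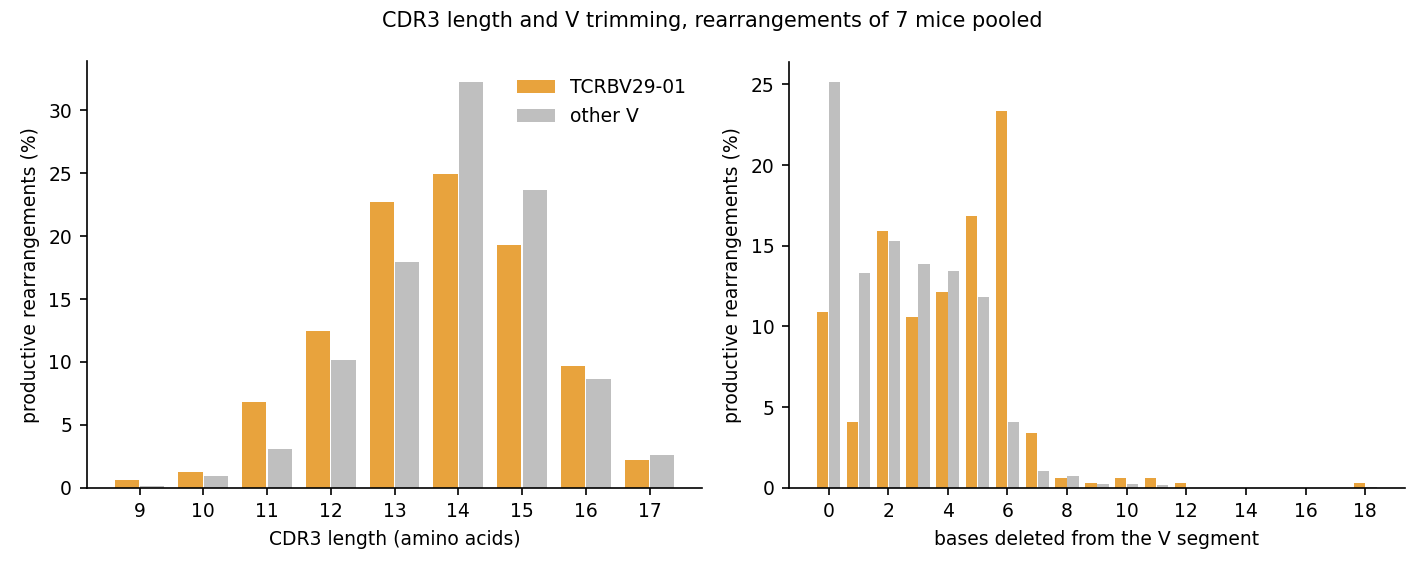
Percent of productive rearrangements of 7 mice by CDR3 length in amino acids (left) and by bases deleted from the V segment (right), for TCRBV29-01 and all other V segments. TCRBV29-01 peaks at 14 residues with 24.9%, against 32.3% with other V segments, and at 6 deleted bases with 23.4%, against 4.10%.

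Inserted bases averaged 3.23, 3.70 and 3.49 in R and 3.00, 3.85, 5.73 and 3.07 in NR, against 3.34 to 3.45 with other V segments (difference 0.330 ± 0.943, SD, n = 7; exact sign-flip permutation test, p = 0.516, adjusted p = 0.516). Here 4 of 19 V labels (21.1%) differed in 1 direction in all 7 mice. The value of 6NR rested on 11 rearrangements, 1 of which had 21 inserted and 18 deleted V bases and a CDR3 that did not begin with cysteine. Without 6NR the difference was -0.0062 bases, and without neighbours of larger clones 0.38. A D segment was called as TCRBD01-01 in 53.6% of productive TCRBV29-01 rearrangements, as TCRBD02-01 in 19.3% and not at all in 27.1%, against 42.5%, 39.0% and 18.5% with other V segments. Leaving out neighbours of larger clones gave 56%, 20% and 24%, against 41.98%, 39.02% and 18.998%.

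TCRBV29-01 was found with 12 of the 14 J labels, and TCRBJ02-05 was the most frequent partner when all rearrangements were counted. It was used by 63 of the 321 productive rearrangements (19.6%), followed by TCRBJ02-07 with 52 (16.2%), TCRBJ01-01 with 37 (11.5%), TCRBJ02-04 with 28 (8.72%) and TCRBJ01-02 with 26 (8.10%). TCRBJ02-01 and TCRBJ02-03 had 22 each, TCRBJ01-04 21, TCRBJ02-02 19, TCRBJ01-05 11, and TCRBJ01-03 and TCRBJ01-06 10 each. TCRBJ01-07 and TCRBJ02-06 had 0, and were rare with other V segments too (0.0304% and 0.0607%). With other V segments TCRBJ02-07 came first, with 23.4%. Of the 63 rearrangements with TCRBJ02-05, 17 carried the CDR3 of the 2R clone. Without them, TCRBJ02-07 came first with 52 of 304 (17.1%) and TCRBJ02-05 followed with 46 (15.1%). The counts were 51 (17%) and 49 (16.3%) of 300 without neighbours of larger clones, against 21.4% and 11.4% with other V segments.

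For TCRBJ02-05 the shares were 14.5%, 34.0% and 17.8% in mice 1R to 3R and 8.11%, 26.5%, 36.4% and 16.0% in mice 4NR to 7NR, against 9.68% to 12.6% with other V segments. It was higher in 6 of 7 mice and lower in 4NR, with a mean difference of 10.8 percentage points ± 11.4 (SD, n = 7), and this did not pass the test (exact sign-flip permutation test, p = 0.0625, adjusted p over 14 J labels 0.273). The share of 2R rested on 17 rearrangements, and without neighbours of larger clones it was 7 of 39 (17.9%), with a mean difference of 7.03 over the mice (p = 0.0781, n = 7, exact permutation test). Neighbours were defined within a mouse, so sequences shared between mice could stay in. Before that step, 2 of the 4 TCRBJ02-05 rearrangements of 6NR carried the CDR3 of the 2R clone, and 1 a CDR3 larger in 3R. Of the 9 in 5NR, 1 carried the CDR3 of the 2R clone. Another 3 and 1 carried those of the 2R clones of 15 and 16 residues. Sequences shared with 2R were also among those of 3R and 7NR. By templates, TCRBJ02-05 held 1871 of the 1958 TCRBV29-01 templates of 2R.

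For TCRBJ02-01 the shares were 8.70%, 8.00% and 2.22% in R and 8.11%, 5.88%, 0% and 8.00% in NR, against 11.7% to 13.8% with other V segments. TCRBV29-01 was lower in 7 of 7 mice, with a mean difference of -6.66 percentage points ± 3.41 (SD, n = 7; exact sign-flip permutation test, p = 0.0156). This was 1 of 14 J labels (7.14%) with an unadjusted p below 0.05, and the adjusted p was 0.219. Of the 14, 0 (0%) had an adjusted p below 0.05 by this test, with or without neighbours of larger clones. The J cluster 2 share as a whole was 55.1%, 74.0% and 55.6% in R and 56.8%, 76.5%, 81.8% and 66.7% in NR, against 67.9% to 72.2%. It was higher in 3 mice and lower in 4 (difference -3.09 percentage points ± 11.5, SD, n = 7; exact sign-flip permutation test, p = 0.5, adjusted p = 0.516), and -3.72 without neighbours of larger clones. Of 19 V labels, 2 (10.5%) differed in 1 direction in all 7 mice.

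**Figure D5:**
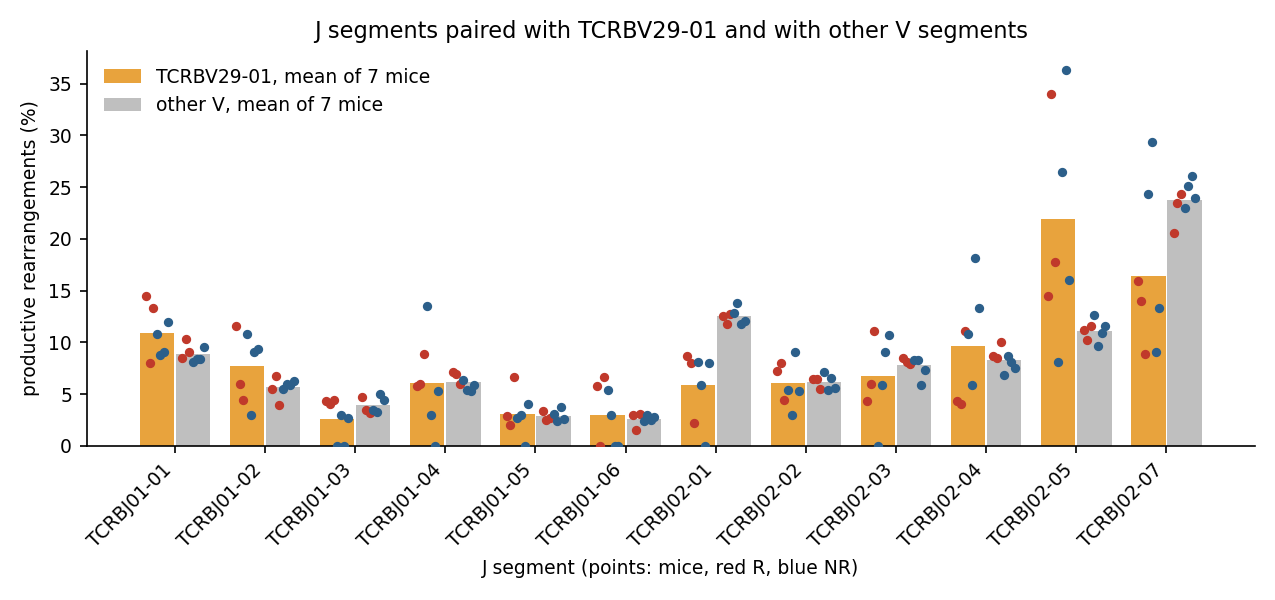
J segments joined to TCRBV29-01 and to all other V segments, as percent of productive rearrangements. Bars are means of 7 mice and points are mice. With TCRBV29-01 the points for TCRBJ02-05 range from 8.11% in 4NR to 36.4% in 6NR, and all 7 for TCRBJ02-01 lie below those of the other V segments.

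Non-productive rearrangements showed TCRBJ02-05 with TCRBV29-01 in 29 of 120 (24.2%), against 9.71% with other V segments. The counts were 4 of 22, 12 of 25 and 3 of 12 in mice 1R to 3R and 0 of 15, 3 of 16, 4 of 5 and 3 of 25 in mice 4NR to 7NR. The count of 2R included the 9 whose marked CDR3 was a base shorter than that of its largest clone, and 4NR had none. That of 6NR included the out-of-frame sequences shared with 3R that lay within a base of a 3R clone. In 6NR they were not counted as neighbours, since that clone had 1 template there. When neighbours of larger clones were left out, TCRBJ02-05 was used by 17 of 98 (17.3%), against 10.2% with other V segments, and TCRBJ02-07 by 21.

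Among V labels with at least 10 productive templates, those whose summed frequency over the 7 mice was most like that of TCRBV29-01 were TCRBV26-01 (Spearman correlation 0.75), TCRBV27-01 (0.71) and TCRBV30-01 (0.61), each over the 7 mice, with 1 library per mouse and unequal depth. TCRBV26-01 held 6.02%, 10.4% and 12.2% in R and 1.84%, 2.17%, 3.04% and 1.49% in NR, so its highest mouse was 3R and not 2R. TCRBV27-01 and TCRBV30-01 had only 16 and 12 templates over all mice. TCRBV26-01 and TCRBV30-01 were the other labels that were higher in every R mouse than in every NR mouse. That pattern, by which TCRBV29-01 was chosen, by itself makes their correlation with it positive.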

How the data were processed

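The authors isolated CD8 T cells from tumors and had rearranged TCRβ CDR3 regions amplified from genomic DNA by multiplex PCR and sequenced on the immunoSEQ platform, with 1 library per mouse. The template counts, as deposited, are whole numbers per nucleotide rearrangement, without normalization, and the deposited fraction is the templates divided by all, or all productive, templates of the mouse. Multiplex primers can amplify V segments unequally, which bears on levels between segments more than on 1 segment between mice. The genome build is not given in the sources used here, so segments carry no coordinates. An overview of totals was not used.

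The members, lists and tests were chosen with earlier results of these data known. Shares were recomputed from templates. Named clones were those above 0.1%, the largest of each mouse and CDR3s in at least 3 mice. CDR3s of 15 or more residues are given by length. Non-productive rearrangements per V label (at least 10 over the mice) were fitted with edgeR 4.0.16 (R 4.3.3, TMM, common dispersion, Benjamini-Hochberg), with DESeq2 1.42.0 as an alternative. The 14 rearrangements without a V label stayed in totals and out of the fit. Permutation tests over mice were exact (Python 3.11.15, scipy 1.17.1). Tests were tested on simulated data. Intervals are 95% Wilson and cover counting error only. Alternatives changed weights, copies, filter and tool, and left out each mouse. Depth was changed only for the number of productive rearrangements, since thinning leaves the expected summed share as it is.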

Additional observations from a re-analysis of the deposited data

Results flagged for a closer look

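In 4 of 15 sets of values, 1 mouse stood apart from the others by Dixon's criterion, which chance meets in about 1 of 20 groups. The average frequency of a productive TCRBV29-01 rearrangement was 0.113% in 6NR, the highest of the NR mice, which had 0.0310%, 0.0296% and 0.0159% in 4NR, 5NR and 7NR. In 6NR, 11 rearrangements shared 29 templates, and 16 of these belonged to the sequence that was largest in 2R. At the depth of 6NR, 1 template is already 0.0429%, above the averages of the other NR mice. Its place as the highest was therefore fixed by depth. The share of TCRBV29-01 rearrangements with 1 template was 44.1% in 5NR, the lowest of the NR mice, against 62.2% to 64% in the other 3. With other V segments it was 59.0% in 5NR. The share of non-productive templates was 2.31% in 5NR, the highest of the NR mice, against 1.30% to 1.33%, and 20 of the 66 templates of 5NR belonged to a single rearrangement. The excess of inserted bases over other V segments was 2.35 in 6NR, the highest of the 7 mice, against 0.41 in the next, 5NR.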

How the results depend on the processing

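The mean difference between R and NR in the summed frequency, 8.20 percentage points, became 0.75 without the largest clone of each mouse and 0.71 with each rearrangement counted once and without neighbours of larger clones. It ranged from 1.43 (without 2R) to 12.1 with 1 mouse left out. The excess of deleted V bases, 1.55, kept p = 0.0156, the smallest that 7 mice allow, in every tested setting with all 7 mice (exact sign-flip permutation test). Its adjusted p passed only where another feature reached that p too. It missed the threshold by templates (3.08 bases), with at least 2 templates (1.11), without rearrangements higher in another mouse (1.53), without neighbours of larger clones (1.44) and with each CDR3 nucleotide sequence counted once (1.44), the last pair being settings chosen after the data were seen. In the same settings the in-frame excess, 9.04 percentage points, was 2.85, 7.06, 8.38, 8.75 and 8.23 and did not pass. Inserted bases turned to -0.0229 with at least 2 templates. With 1 mouse left out these differences ranged from 1.33 to 1.67 bases deleted, 7.55 to 10.03 percentage points in frame and -0.0062 (without 6NR) to 0.46 bases inserted. The first and second of these kept p = 0.0312, unadjusted and the smallest that 6 mice allow (exact permutation test).

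Non-productive rearrangements had a log2 fold change of 0.18 between R and NR, of -0.27 by templates and of -0.40 without neighbours of larger clones, and of -0.31 (without 2R) to 0.50 (without 3R) with 1 mouse left out. The replicate block, in a paired fit on replicate numbers that only name different mice, gave 0.43 and changed no call. Mice of the same number deviated together with correlations of 0.43, 0.02 and 0.25. The share moved from 0.603 percentage points to -0.53 without neighbours, and ranged from -0.55 (without 2R) to 1.44 (without 3R). The 2332 templates of 6NR limit its shares most.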
